A study of Mus musculus with 12 samples.

Results

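The 35 genes described here make cholesterol, control its synthesis, take it up, move it within the cell, store it as ester and export it. They were chosen by name: every non-control probe of the array whose gene name is one of the 35 was taken, with the older symbol Sc4mol for Msmo1. This gave 69 of the 41174 probes on the array. Of the 35 genes, 34 had a probe above the filter on dim spots and were tested among 15831 genes. Mvk, mevalonate kinase, was the exception: its 2 probes were well above local background on 0% and 8.33% of the arrays of DEHP mice and on 0% and 25% of those of vehicle mice.

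A Leydig cell turns cholesterol into testosterone, so it needs a supply of cholesterol as substrate. The cell builds cholesterol from acetyl-CoA through the mevalonate and sterol enzymes, takes it from circulating lipoproteins, and frees it from stored esters. The transcription factor SREBP2, held back by INSIG proteins when sterol is plentiful and escorted by SCAP when it is scarce, switches on the synthetic genes, while the oxysterol receptors LXR alpha and LXR beta switch on the genes of export. Rodent Leydig cells are known for drawing much of their cholesterol from high-density lipoprotein through the scavenger receptor SR-BI.

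Leydig cells were cut by laser capture from frozen sections of the right testis of male C57BL/6J mice aged 21 weeks. DEHP mice had received di-(2-ethylhexyl) phthalate, a plasticiser, in corn oil by daily gavage at 200 mg per kg per day for 21 days, and vehicle mice had received corn oil alone. RNA of 2 DEHP mice (numbers 1 and 4) and 3 vehicle mice (numbers 1, 2 and 4) was amplified in 2 rounds and hybridised to 2-colour Agilent arrays, so that every DEHP extract met every vehicle extract once with each dye, on 12 arrays of 3 slides. Exposure groups of 4 mice are given in the labels, and the remaining mice are not analysed here. Each mouse is an independent animal, so the group comparison has 2 against 3 replicates.

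Each value below is a log2 level in 1 mouse with the average over all 5 mice set to 0, from a least-squares fit to the 12 log ratios that also takes out the dye effect. The share of probe spots well above background was 45.4% to 54.4% in the red channel and 35.5% to 46.1% in the green. The same pair of mice in the 2 dye orientations gave log ratios that correlated across genes at 0.613 to 0.945. All 9 genes of a Leydig cell marker list were measured and 5 of them, Insl3, Star, Cyp11a1, Cyp17a1 and Hsd3b1, are among the classic defining genes of this cell. Others of the list were dim. Nr5a1 was well above background on 25% of the arrays of DEHP mice and 50% of those of vehicle mice. For Lhcgr these shares were 58.3% and 83.3%. All 10 genes of a spermatid list passed the filter too, and their levels are given with the results below.

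No cholesterol gene passed the test between the groups. By limma with Benjamini-Hochberg adjustment, 0 of the 34 members and 0 of all 15831 genes (0%) had an adjusted p under 0.05, and the lowest adjusted p was 1. Without adjustment, 0 members and 135 genes (0.853%) had a limma p under 0.05, and those of the members ran from 0.0542 (Pmvk) to 0.976 (Mvd). The difference, DEHP minus vehicle, was above 0 in 12 members and below 0 in 22, with a median of -0.15. Over all tested genes 7654 were above 0 and 8177 below, with a median of -0.01. The members ran from -0.67 (Scap) to 0.78 (Pmvk), the standard errors from 0.18 to 0.73, and the 95% interval of each of the 34 held 0. In 2 of 34 members, Pmvk and Npc2, the DEHP mice did not overlap the vehicle mice and lay higher. Over all genes the groups did not overlap in 9.17%, with the DEHP mice higher in 625 genes and lower in 827. At a second Pmvk probe the groups overlapped.

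**Figure D1:**
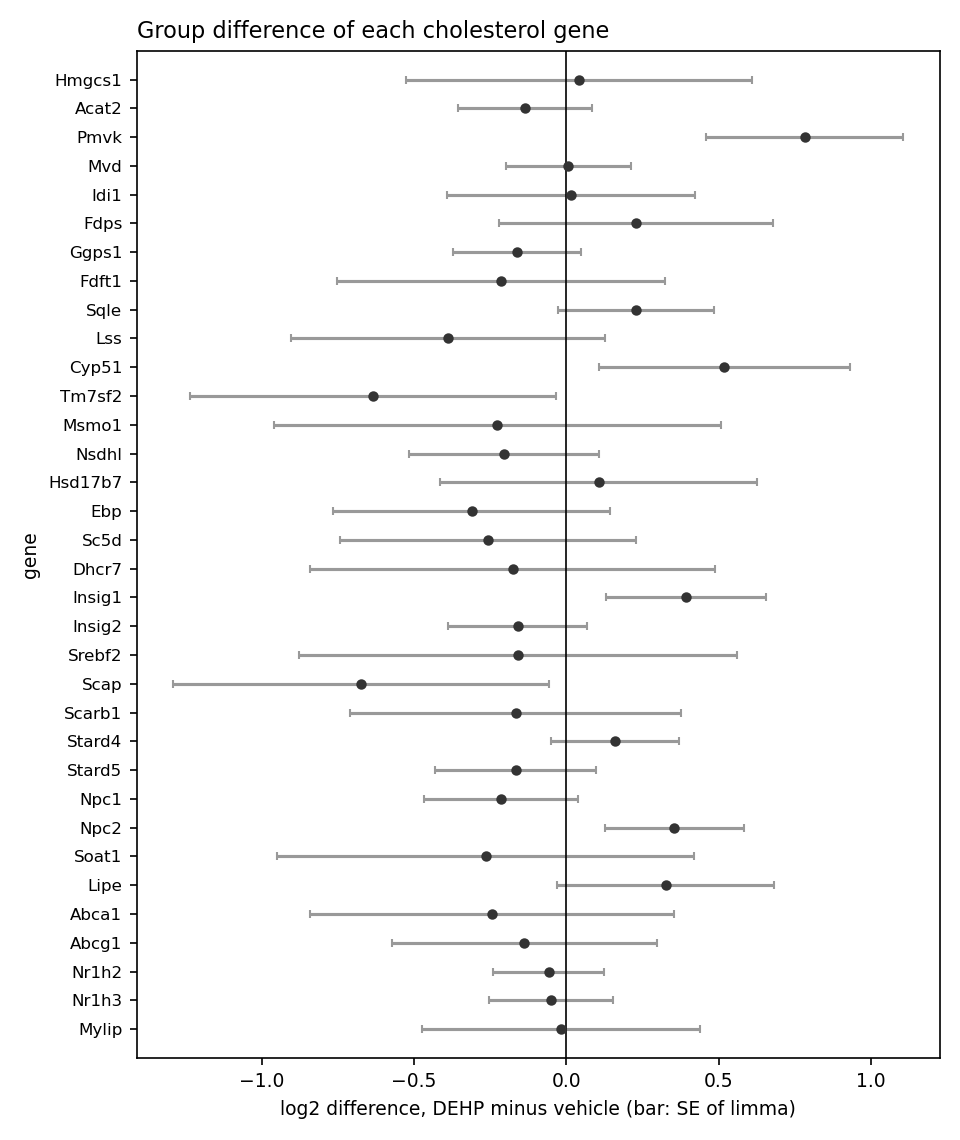
Log2 difference between DEHP and vehicle mice (x axis) for each of the 34 measured cholesterol genes (y axis, ordered by role), as points with the standard error of limma as bars. The points lie between -0.67 and 0.78, 12 above 0 and 22 below.

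The median of the members depended on which mouse was in the comparison. Leaving out DEHP mouse 1 gave -0.42 and leaving out DEHP mouse 4 gave 0.28, and the median was -0.26, 0.02 and 0.04 without vehicle mice 1, 2 and 4 in that order. By slide it was 0.11 on slide 1 and 0.02 on slide 2, which hold vehicle mice 1 and 2 in opposite dye orientations, and -0.34 on slide 3, which holds vehicle mouse 4. In captured tissue, fewer cells of a type and less RNA per cell cannot be told apart.

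The mice differed widely within each group. The median standard deviation of a cholesterol gene was 0.61 among DEHP mice and 0.55 among vehicle mice, while over all genes it was 0.28 in each group. The medians of the 34 genes were 0.26 in DEHP mouse 1 and -0.38 in DEHP mouse 4, against -0.48, 0.25 and 0.29 in vehicle mice 1, 2 and 4. In 23 of the 34 genes (67.6%), DEHP mouse 4 and vehicle mouse 1 held the lowest values of the 5, an order found in 29.3% of all genes. The reverse order, with these mice highest, occurred in 1 cholesterol gene, Cyp51, and in 26.4% of all genes. These counts use the brightest measured probe of a gene. Idi1 and Fdft1 are among the 23, but their other measured probes had these mice highest, and the other Cyp51 probe had them lowest. This order was picked out after the values were seen, and these shares are a description.

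**Figure D2:**
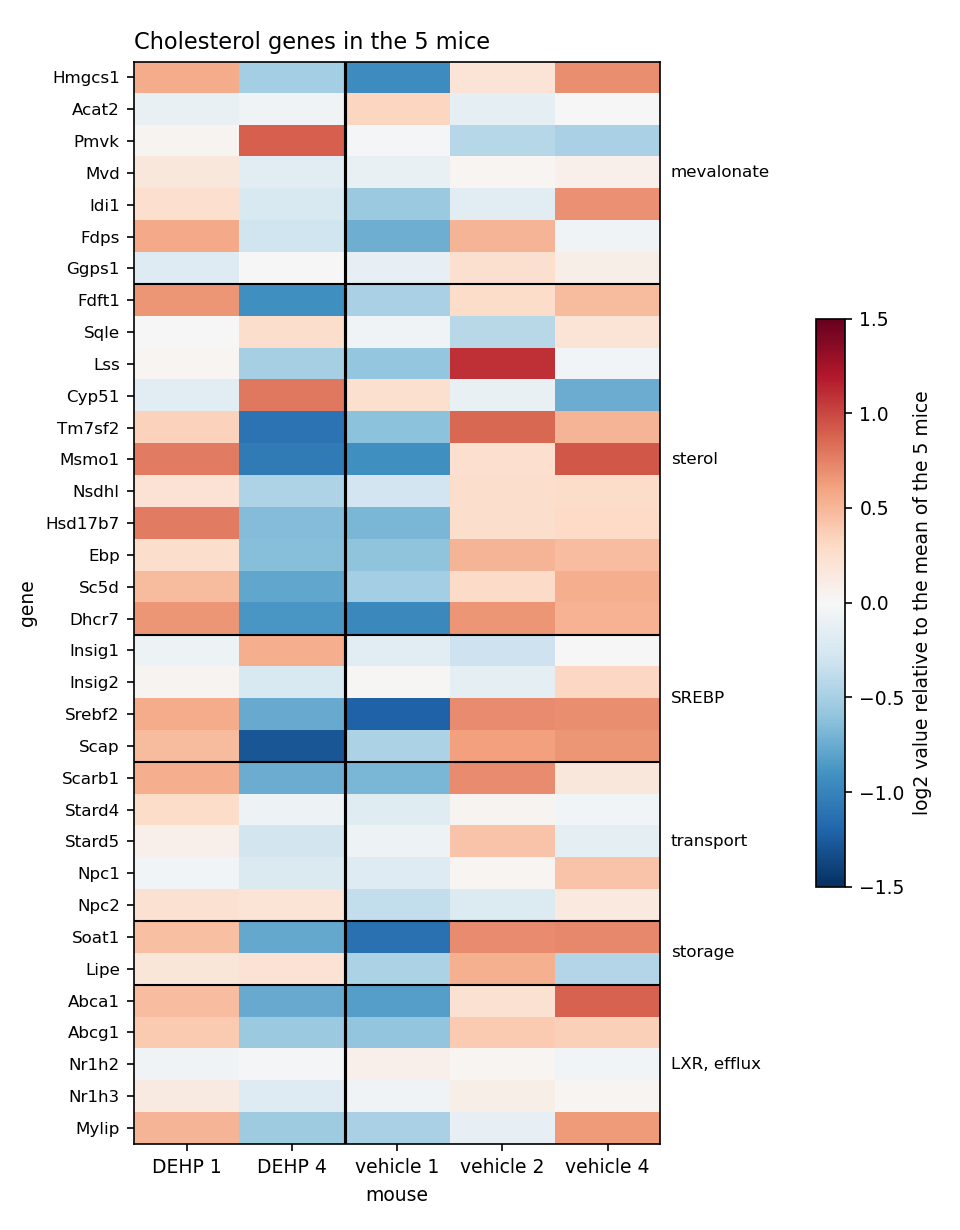
Log2 value of each measured cholesterol gene (rows, ordered by role) in each mouse (columns, DEHP mice on the left), relative to the mean of the 5 mice; red is above and blue below that mean. DEHP mouse 4 and vehicle mouse 1 are blue in most rows, with medians of -0.38 and -0.48, and Pmvk, Cyp51, Sqle and Insig1 are highest in DEHP mouse 4.

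The mevalonate enzymes lead from acetyl-CoA to the isoprenoid units of sterols. Hmgcs1, the synthase that makes HMG-CoA in the cytosol, had log2 values of 0.56 and -0.51 in DEHP mice, against -0.94, 0.20 and 0.70 in vehicle mice. The groups overlapped fully, with 1 high and 1 low mouse under DEHP and both extremes among the vehicle mice. Its difference was 0.04 (SE 0.57, 95% interval -1.37 to 1.45). Pmvk, phosphomevalonate kinase, had 0.04 and 0.90 in DEHP mice, against -0.02, -0.43 and -0.49 in vehicle mice. Both DEHP mice lay above all vehicle mice, but DEHP mouse 1 exceeded vehicle mouse 1 only narrowly. Pmvk averaged 0.47 ± 0.61 in DEHP mice and -0.31 ± 0.25 in vehicle mice (SD, n = 2 and 3), a difference of 0.78 (SE 0.32, 95% interval -0.02 to 1.58, limma adjusted p = 1). Leaving out DEHP mouse 1 gave 1.21, and leaving out DEHP mouse 4 gave 0.35. A second Pmvk probe gave a difference of 0.17, as described with the probes below.

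The other measured enzymes of this segment had small differences. Mvd, mevalonate diphosphate decarboxylase, was at 0.01 (SE 0.21), but its probe was well above background on only 33.3% of the arrays of DEHP mice and 50% of those of vehicle mice. Idi1, isopentenyl diphosphate isomerase, was at 0.02 (SE 0.41), and Fdps, farnesyl diphosphate synthase, at 0.23 (SE 0.45). Acat2, the cytosolic thiolase that condenses acetyl-CoA, was at -0.14 (SE 0.22), and Ggps1, which makes geranylgeranyl diphosphate on a side branch, at -0.16 (SE 0.21). Acat2 and Ggps1 were the members of this segment whose mice spanned least apart from Mvd.

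The sterol enzymes convert farnesyl diphosphate through squalene and lanosterol to cholesterol. At the brightest probe of each gene, 9 of the 11 shared the order with DEHP mouse 4 and vehicle mouse 1 lowest. Sqle, squalene epoxidase, a rate-limiting enzyme of the later pathway, did not: it had 0.01 and 0.27 in DEHP mice, against -0.06, -0.42 and 0.20 in vehicle mice. Its difference was 0.23 (SE 0.26, 95% interval -0.40 to 0.86), with DEHP mouse 4 highest and vehicle mouse 2 lowest. Cyp51, lanosterol 14 alpha-demethylase, was the other exception, with -0.16 and 0.79 in DEHP mice, against 0.24, -0.11 and -0.74 in vehicle mice. DEHP mouse 4 stood above every other mouse and DEHP mouse 1 lay among the vehicle mice. The difference of Cyp51 was 0.52 (SE 0.41, 95% interval -0.50 to 1.54, limma adjusted p = 1), and without DEHP mouse 4 it was 0.04.

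Tm7sf2, a sterol C14 reductase, had 0.35 and -1.11 in DEHP mice, against -0.61, 0.86 and 0.51 in vehicle mice. DEHP mouse 4 was the lowest of the 5 by a wide margin, while DEHP mouse 1 lay between vehicle mice. Its difference was -0.64 (SE 0.60, 95% interval -2.12 to 0.85, limma adjusted p = 1), and 0.09 without DEHP mouse 4. Dhcr7, which makes cholesterol from 7-dehydrocholesterol, had 0.66 and -0.87 in DEHP mice, against -0.97, 0.66 and 0.52 in vehicle mice. Each group held a mouse near the bottom of the range and at least 1 near the top, and the difference was -0.18 (SE 0.66, 95% interval -1.82 to 1.47). The remaining 7 sterol enzymes had differences from -0.39 to 0.11: Fdft1, squalene synthase, at -0.21 (SE 0.54), Lss, lanosterol synthase, at -0.39 (SE 0.51), and Msmo1, the C4 methyl oxidase, at -0.23 (SE 0.73). Of the enzymes that follow in C4 demethylation and double bond rearrangement, Nsdhl was at -0.20 (SE 0.31), Hsd17b7 at 0.11 (SE 0.52), Ebp at -0.31 (SE 0.45) and Sc5d at -0.26 (SE 0.48).

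Of the 4 SREBP control genes, Srebf2 and Scap had the order with DEHP mouse 4 and vehicle mouse 1 lowest at their brightest probe, and Insig1 and Insig2 did not. Srebf2, which encodes SREBP2, had 0.56 and -0.75 in DEHP mice, against -1.21, 0.71 and 0.70 in vehicle mice. DEHP mouse 4 and vehicle mouse 1 were low and the other mice lay close together. Its difference was -0.16 (SE 0.72, 95% interval -1.94 to 1.62). Scap, the sterol sensor that escorts SREBP2 to the Golgi, had 0.48 and -1.29 in DEHP mice, against -0.47, 0.61 and 0.67 in vehicle mice. Its difference of -0.67 (SE 0.62, 95% interval -2.20 to 0.85, limma adjusted p = 1) was the most negative of all members, and it was 0.21 without DEHP mouse 4. Insig1, which retains SCAP in the endoplasmic reticulum and is itself an SREBP target, had -0.08 and 0.55 in DEHP mice, against -0.16, -0.31 and 0.00 in vehicle mice. DEHP mouse 4 was highest, DEHP mouse 1 fell within the vehicle range, and the probe was well above background on 83.3% of the arrays of DEHP mice and 75% of those of vehicle mice. The difference of Insig1 was 0.39 (SE 0.26, 95% interval -0.25 to 1.04, limma adjusted p = 1). Leaving out DEHP mouse 1 gave 0.71, and leaving out DEHP mouse 4 gave 0.08. It was 1.07 with the scanner software's processed signals, 0.86 from the authors' deposited values and 0.06 with the mean of both Insig1 probes, so its size depended on the processing. Insig2, its relative that is not driven by SREBP, was at -0.16 (SE 0.23).

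Among the genes of uptake and transport, Scarb1, the lipoprotein receptor SR-BI, had 0.55 and -0.75 in DEHP mice, against -0.68, 0.70 and 0.18 in vehicle mice. The groups overlapped and the difference was -0.17 (SE 0.54, 95% interval -1.51 to 1.18). Npc2, the soluble lysosomal protein that binds cholesterol freed from lipoprotein, had 0.23 and 0.20 in DEHP mice, against -0.37, -0.20 and 0.14 in vehicle mice. The DEHP mice lay close together and above all vehicle mice, of which vehicle mouse 4 came nearest. Npc2 averaged 0.21 ± 0.02 in DEHP mice and -0.14 ± 0.26 in vehicle mice (SD, n = 2 and 3), a difference of 0.35 (SE 0.23, 95% interval -0.21 to 0.92, limma adjusted p = 1). It was 0.53 on slide 1, 0.46 on slide 2 and 0.07 on slide 3, and it ranged from 0.24 to 0.50 with 1 mouse left out.

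Npc1, the membrane partner that hands lysosomal cholesterol on, had -0.04 and -0.22 in DEHP mice, against -0.20, 0.03 and 0.43 in vehicle mice. Its difference was -0.21 (SE 0.25, 95% interval -0.84 to 0.41), with DEHP mouse 4 just below vehicle mouse 1 and DEHP mouse 1 inside the vehicle range. Stard4, a soluble cytosolic sterol carrier, had 0.27 and -0.08 in DEHP mice, against -0.18, 0.04 and -0.05 in vehicle mice, DEHP minus vehicle 0.16 (SE 0.21, 95% interval -0.36 to 0.68). DEHP mouse 1 was highest and DEHP mouse 4 lay inside the vehicle range. Stard5, a related sterol-binding protein, was at -0.17 (SE 0.26). The probes of Npc1 and Stard5 were dim, well above background on 75% and 58.3% of the arrays of DEHP mice, against 83.3% and 75% of those of vehicle mice. With the scanner software's processed signals the difference was -0.62 for Npc1 and -0.60 for Stard5. Npc1 was at -0.56 on slide 3, against -0.02 and -0.07 on slides 1 and 2.

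Storage and release were measured by a pair of genes. Soat1, which esterifies cholesterol for lipid droplets, had 0.45 and -0.77 in DEHP mice, against -1.12, 0.71 and 0.73 in vehicle mice. DEHP mouse 4 and vehicle mouse 1 were low and the other mice high, and the difference was -0.27 (SE 0.68, 95% interval -1.96 to 1.43). Lipe, hormone-sensitive lipase, which frees cholesterol from its esters in steroidogenic cells, had 0.18 and 0.21 in DEHP mice, against -0.48, 0.53 and -0.44 in vehicle mice. The DEHP mice lay close together, while vehicle mouse 2 lay above them and the other vehicle mice below. Its difference was 0.33 (SE 0.36, 95% interval -0.56 to 1.21).

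The 5 LXR and efflux genes had differences from -0.24 to -0.02, none past the threshold. With 1 mouse left out, Abca1 ran from -0.85 to 0.36, Abcg1 from -0.61 to 0.34 and Mylip from -0.54 to 0.51. Abca1, the pump that loads cholesterol onto apolipoprotein A-I, had 0.46 and -0.75 in DEHP mice, against -0.83, 0.23 and 0.89 in vehicle mice. Vehicle mice formed both ends of the range, and the difference was -0.24 (SE 0.60, 95% interval -1.72 to 1.24). Abcg1, which exports cholesterol to high-density lipoprotein, was at -0.14 (SE 0.44), and Mylip, the LXR-induced ubiquitin ligase that degrades lipoprotein receptors, at -0.02 (SE 0.46). Nr1h3, LXR alpha, had 0.13 and -0.19 in DEHP mice, against -0.05, 0.09 and 0.03 in vehicle mice, DEHP minus vehicle -0.05 (SE 0.20, 95% interval -0.55 to 0.45). Nr1h2, LXR beta, was at -0.06 (SE 0.18) and spanned 0.13 over the 5 mice, the smallest span of the 34. Both receptor probes were well above background on 75% of the arrays of DEHP mice.

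Within a treatment group the extracts of single mice differed at most cholesterol genes, as they did at most genes of the array. These tests use the 12 arrays of the same extracts, so they compare RNA extracts and not treatments. DEHP mouse 4 minus DEHP mouse 1 passed an adjusted p under 0.05 by limma in 30 of 34 members (88.2%), against 77.4% of all genes. Of these members 5 were higher and 25 lower. The median was -0.61 in the 34 members and -0.05 in all genes. All 11 sterol enzymes passed, 9 lower and 2 higher, with a median of -1.25. The most negative were Msmo1 at -1.84 (SE 0.06), Scap at -1.77 (SE 0.04) and Fdft1 at -1.58 (SE 0.04), and the most positive were Cyp51 at 0.95 (SE 0.04), Pmvk at 0.86 (SE 0.04) and Insig1 at 0.63 (SE 0.08). These values, and those of the vehicle pairs below, are from the brightest measured probe of a gene. At their other measured probes Cyp51 was at -0.57, Pmvk at -0.54, Insig1 at -0.23 and Fdft1 at 0.30. The other Idi1 probe was at 1.22, above all of these. Acat2, Npc2, Lipe and Nr1h2 did not pass, with values between -0.03 and 0.06.

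The vehicle mice were compared in all 3 pairs. Vehicle mouse 1 minus vehicle mouse 2 passed in 30 of 34 members (88.2%), against 71% of all genes. Of these members 5 were higher and 25 lower, and the median of the 34 was -0.66. Srebf2 was at -1.92 (SE 0.04), Soat1 at -1.83 (SE 0.09) and Lss at -1.67 (SE 0.07). Vehicle mouse 1 minus vehicle mouse 4 passed in 27 of 34 members (79.4%), against 68.8% of all genes. Of these members 3 were higher and 24 lower, and the median of the 34 was -0.66. The most negative were Srebf2 at -1.91 (SE 0.04), Msmo1 at -1.86 (SE 0.07) and Soat1 at -1.84 (SE 0.09). Vehicle mouse 2 minus vehicle mouse 4 passed in 20 of 34 members (58.8%), nearly the share of all genes (57.4%). Of these members 8 were higher and 12 lower, and the median of the 34 was -0.02. That last pair differed most at Lss, 1.13 (SE 0.07) and Lipe, 0.97 (SE 0.10), both higher in vehicle mouse 2, and at Idi1, -0.84 (SE 0.05), lower there. The 2 comparisons with vehicle mouse 1 share its extract.

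**Figure D3:**
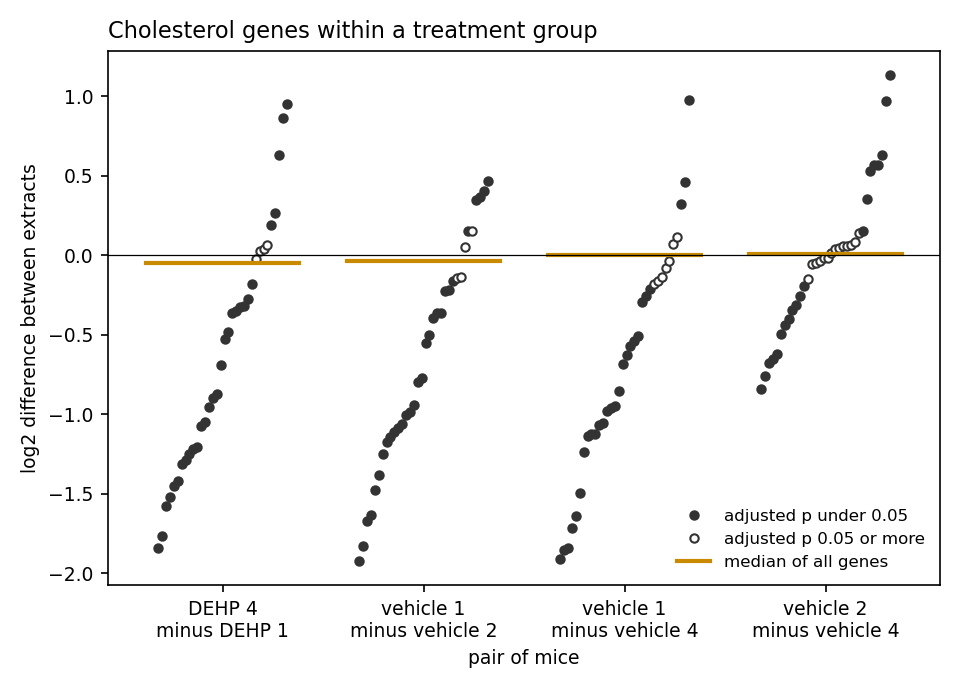
Log2 difference between the extracts of 2 mice of the same group (y axis) for 34 cholesterol genes in 4 pairs of mice (x axis), filled where limma's adjusted p was under 0.05, with the genes of a pair sorted by value and a line at the median of all genes. Most points of the 3 pairs with DEHP mouse 4 or vehicle mouse 1 lie below the line, with medians of -0.61, -0.66 and -0.66, and those of vehicle mouse 2 minus vehicle mouse 4 lie on both sides.

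Markers of the Leydig cell and of other cells moved with these values. The median log2 value of the 9 Leydig markers was 0.68 and -0.72 in DEHP mice, against -0.42, 0.18 and 0.50 in vehicle mice, and 7 of 9 had DEHP mouse 4 and vehicle mouse 1 lowest. Macrophage markers (7 measured, with Adgre1 also listed by its older symbol Emr1) stood at 0.55 and -0.71 in DEHP mice. They were at -0.46, 0.08 and 0.47 in vehicle mice, and 5 of 7 had that order. Endothelial markers (6 of 6 measured) stood at 0.25 and -0.40 in DEHP mice, against -0.60, 0.44 and 0.16 in vehicle mice, with 5 of 6 in that order.

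Spermatid markers (10 of 10 measured) ran the other way, at 0.01 and 0.86 in DEHP mice, against 0.18, -0.65 and -0.45 in vehicle mice, with 8 of 10 highest in DEHP mouse 4 and vehicle mouse 1. Their summed log2 intensity was 19.27 and 19.66 in DEHP mice, against 19.07, 18.47 and 18.47 in vehicle mice, and that of the Leydig markers was 17.28 and 15.69 in DEHP mice, against 16.02, 17.11 and 17.30 in vehicle mice. Myoid markers (5 of 5 measured) stood at -0.01 and -0.91 in DEHP mice, against -0.12, 0.96 and 0.19 in vehicle mice. DEHP mouse 4 and vehicle mouse 1 were lowest in 3 of 5. Sertoli markers (7 of 8 measured) stood at -0.10 and -0.20 in DEHP mice, against 0.15, 0.09 and 0.12 in vehicle mice. Those mice were lowest in 1 of 7 and highest in 1 of 7. The part of cell makeup in the cholesterol values was not tested.

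**Figure D4:**
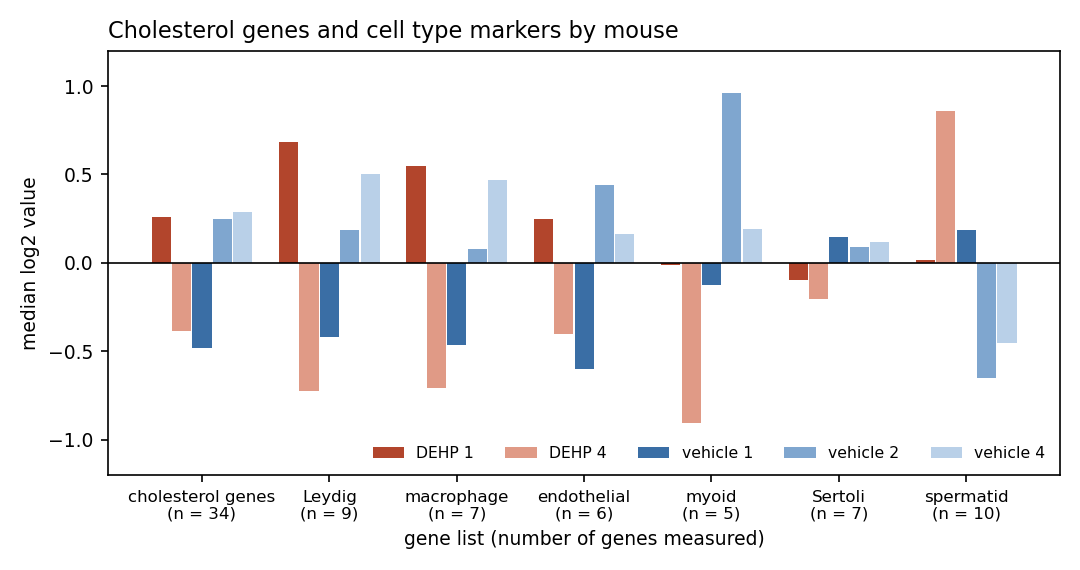
Bars give the median log2 value (y axis) of the cholesterol genes and of 6 lists of cell type markers (x axis, with the number of genes measured) in each of the 5 mice, DEHP mice in red and vehicle mice in blue. Cholesterol, Leydig, macrophage, endothelial and myoid genes are below 0 in DEHP mouse 4 and vehicle mouse 1, and spermatid genes are highest in DEHP mouse 4 at 0.86.

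Probes of the same gene did not always follow the same mice. Of the 34 measured members, 13 had at least 2 measured probes on 1 strand of a chromosome, at most 100000 bases apart on the mm7 mouse assembly of the array files. In DEHP mouse 4 minus DEHP mouse 1 the most downstream probe was lower than the most upstream one in 9 of 13 members (69.2%), against 63.7% of 3995 genes with such probes. The upstream probe was above 0 and the downstream probe below 0 in 8 of 13 (61.5%), against 26% of those genes. In vehicle mouse 1 minus vehicle mouse 2 the downstream probe was lower in 7 of 13 members (53.8%), against 68.6% of genes, and the signs were split that way in 4 (30.8%), against 30.9%. In vehicle mouse 1 minus vehicle mouse 4 the downstream probe was lower in 7 members (53.8%), against 69.1% of genes, and the signs were split in 5 (38.5%), against 31.6%. For vehicle mouse 2 minus vehicle mouse 4 these counts were 8 (61.5%), against 47.8%, and 4 (30.8%), against 19.8%. The share of members with the downstream probe lower thus lay above that of all genes in some pairs of mice and below it in others. The share with split signs lay above that of all genes in each pair except vehicle mouse 1 minus vehicle mouse 2, where the shares were nearly equal. In DEHP minus vehicle the downstream probe was the lower one in 10 of 13 members (76.9%), against 63.5% of genes. The signs were split in 7 (53.8%), against 29.2%. Some of these signs come from dim probes. The downstream probe of Cyp51 was at -0.02 (SE 0.28) and that of Fdps at -0.09 (SE 0.19). That of Insig1, at -0.27 (SE 0.18), was well above background on 25% of the arrays of DEHP mice and 75% of those of vehicle mice. Outside vehicle mouse 2 minus vehicle mouse 4, the downstream probe was the lower one in most such genes of the array, and the part of that shift in the values of the members was not tested.

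The probes of Pmvk, Idi1, Cyp51 and Srebf2 are shown because the mouse pattern of these genes changed with the probe. Each line gives 30 of the 60 bases of a probe, on the strand of the transcript, and capitals mark the hexamer AATAAA, the usual polyadenylation signal, where the printed bases hold it.
Pmvk upstream, bases 31 to 60: cgtgagtagtgggcaAATAAAgaaacctct
Pmvk downstream, bases 1 to 30: ggtgttgtgttttccctggagaggacactc
Idi1 upstream, bases 1 to 30: gatgctaaaattacctttccaggttgtttc
Idi1 downstream, bases 1 to 30: aggcatatattgatactgtgttttgattga
Cyp51 upstream, bases 1 to 30: cgttgtgttggagaaaattttgcctatgtt
Cyp51 downstream, bases 1 to 30: aggttccttttagtattatctttggttatt
Srebf2 upstream, bases 31 to 60: aaacaactcacaatacacctgtaaAATAAA
Srebf2 middle, bases 1 to 30: aactaggtctttgcaccagagagcattttg
Srebf2 downstream, bases 1 to 30: tgggaggggttggtttttcactgaacaggg

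The hexamer AATAAA, searched on the probe's own strand, occurred in 7 of the 69 member probes (10.1%) and in 4.78% of all probes of the array. In Pmvk the probes adjoin, at chr3:89595419-89595478 and chr3:89595479-89595538 on the plus strand, and the hexamer lies in the upstream one. The downstream Pmvk probe had 0.37 and -0.17 in DEHP mice, against -0.58, 0.09 and 0.30 in vehicle mice. DEHP mouse 4, the highest mouse of the upstream probe, was the second lowest here. DEHP mouse 4 minus DEHP mouse 1 was 0.86 (SE 0.04) at the upstream probe and -0.54 (SE 0.06) at the downstream probe, both past the limma threshold.

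The upstream Cyp51 probe, at chr5:4089242-4089301 on the minus strand, gave the values described above. The downstream one, at chr5:4087477-4087536, had 0.27 and -0.30 in DEHP mice, against -0.24, -0.06 and 0.33 in vehicle mice, and was well above background on 58.3% of the arrays in each group. Here DEHP mouse 4 and vehicle mouse 1 were lowest, the reverse of the upstream probe, and the group difference was -0.02 (SE 0.28). Male germ cells of mouse and rat are known to carry shorter Cyp51 transcripts that end at other polyadenylation sites.

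The upstream Fdft1 probe had 0.06 and 0.35 in DEHP mice, against 0.34, -0.51 and -0.24 in vehicle mice. At the downstream Fdft1 probe the values were 0.66 and -0.92 in DEHP mice, against -0.49, 0.28 and 0.47 in vehicle mice. Group differences were 0.34 (SE 0.30) upstream and -0.21 (SE 0.54) downstream. For Idi1 the upstream probe had -0.51 and 0.71 in DEHP mice, against 0.58, -0.68 and -0.10 in vehicle mice, with the same mice high that were low at the downstream probe. The files place both Idi1 probes on chromosome 2, at chr2:53703843-53703902 and chr2:53701852-53701911 on the minus strand. Copies of Idi1 elsewhere in the genome were not searched for. Signal shared with such copies was not tested, and the Idi1 values are uncertain.

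Srebf2 had 3 measured probes on the plus strand. The upstream one, at chr15:82257952-82258011, ends in AATAAA and had 0.01 and 0.18 in DEHP mice, against -0.15, 0.03 and -0.07 in vehicle mice. The middle one, at chr15:82288730-82288789, had 0.12 and 0.01 in DEHP mice, against 0.08, -0.21 and -0.01 in vehicle mice. The middle probe was dim, well above background on 75% of the arrays of DEHP mice and 66.7% of those of vehicle mice, and the part of background in its small spread was not tested. The upstream probe, above background on every array, also varied less than the downstream one, at chr15:82289660-82289719, where vehicle mouse 1 minus vehicle mouse 2 was -1.92. A shortened germ cell form of SREBP2 is known from rodent spermatids, and which form each probe reads is not annotated in the files used here.

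Of the other members with probes that disagreed, Insig1 had group differences of 0.39 (SE 0.25) upstream and -0.27 (SE 0.18) downstream, where the probe was well above background on 25% of the arrays of DEHP mice and 75% of those of vehicle mice, and Insig2 of 0.20 (SE 0.18) and -0.16 (SE 0.22). Fdps had 0.23 (SE 0.45) upstream and -0.09 (SE 0.19) downstream, and Hsd17b7 had 0.11 (SE 0.52) and -0.17 (SE 0.40). Soat1 had -0.27 (SE 0.68) and -0.02 (SE 0.29) at its probes on chromosome 1, and -0.46 (SE 0.36) at a probe that the files place on chromosome 7. These errors come from the fit over all measured probes, and the probes of Idi1 and Soat1 were added after their values were seen.

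**Figure D5:**
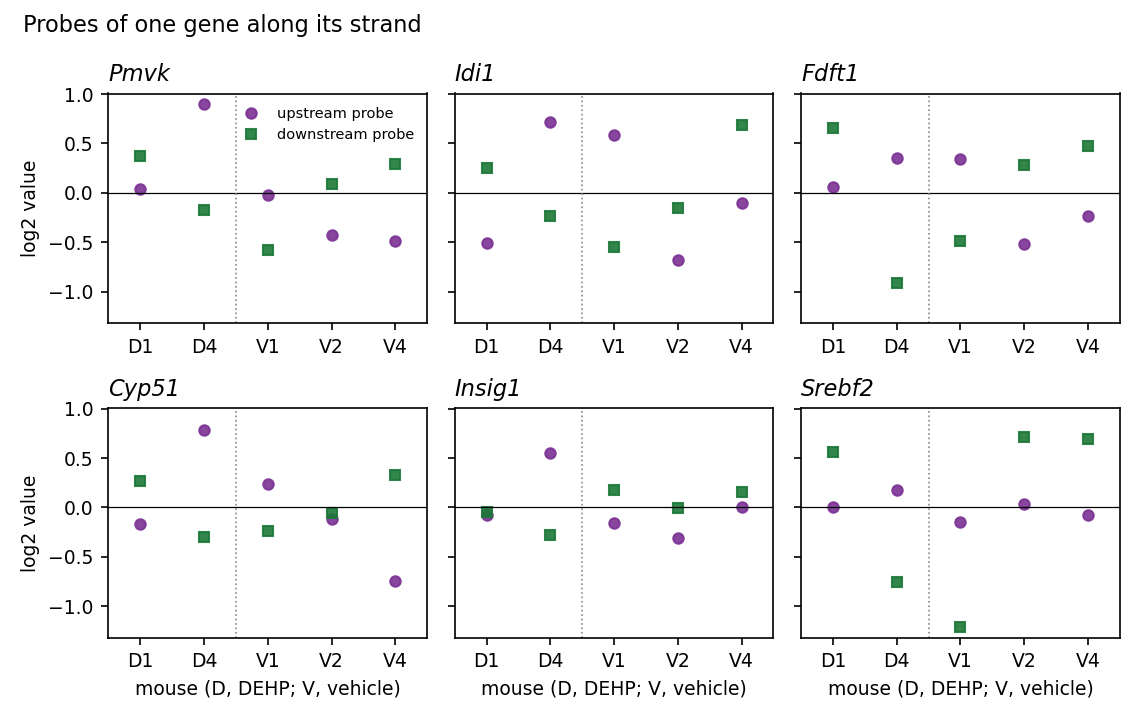
Log2 value (y axis) of the most upstream and the most downstream measured probe of 6 cholesterol genes in each of the 5 mice (x axis; D, DEHP; V, vehicle), relative to the mean of the 5 mice of that probe. In Pmvk the upstream probe is highest in D4 at 0.90, where the downstream probe is at -0.17, and in Srebf2 the downstream probe spans far more than the upstream one.

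The promoters of the members were searched for the motifs of SREBP2 and its partner NF-Y. RefSeq promoter windows on GRCm38.p6, 250 bases before to 50 after a start, were given for 28 of the 35 members, in 36 windows. The sterol regulatory element core TCACCCCA, on either strand, occurred in 2 of the 36 windows (5.56%), those of Hmgcs1 and Srebf2, and in 1.56% of all 32851 windows. The longer form TCACNCCAC occurred in 1 member window (2.78%), that of Hmgcs1 at an overlapping place, and in 1.24% of all. The NF-Y box CCAAT, on either strand, occurred in 22 member windows (61.1%) and in 37.4% of all. The stretches with the core are shown with TCACCCCA and the NF-Y box in capitals, the box as ATTGG on this strand.
Hmgcs1, chr13:119690188-119690247, plus strand: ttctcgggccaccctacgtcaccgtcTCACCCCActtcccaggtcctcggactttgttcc
Srebf2, chr15:82147081-82147140, plus strand: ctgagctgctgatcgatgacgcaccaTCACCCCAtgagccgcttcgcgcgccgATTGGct

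The core begins 137 bases before the start of Hmgcs1 and 162 bases before that of Srebf2. These are exact matches of letters, so variant forms of the element were not counted, and binding was not measured here. In the same extracts Hmgcs1 was at -1.07 (SE 0.04) in DEHP mouse 4 minus DEHP mouse 1, and the downstream probe of Srebf2 at -1.32 (SE 0.03). The upstream Srebf2 probe was at 0.17 (SE 0.04). Of the members with a window but no core, Msmo1 was at -1.84 (SE 0.06) and Dhcr7 at -1.52 (SE 0.06). Cyp51 and Insig1, likewise without the core, were at 0.95 (SE 0.04) and 0.63 (SE 0.08) at their upstream probes. At their downstream probes they were at -0.57 (SE 0.07) and -0.23 (SE 0.06). The part of SREBP2 in these values was not tested.

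A wider list of 28 other genes of sterol synthesis, processing, uptake and transport also had no gene past the threshold between the groups. Of these, 23 were measured, with 4 above 0, 19 below and a median difference of -0.19. Over all tested genes 51.7% were below 0 and the median was -0.01. The split of the list was not recounted with mice left out. In the list 0 genes passed by limma, likewise 0 at an unadjusted p under 0.05. The lowest p values were 0.133 for Erlin2, an endoplasmic reticulum protein that helps degrade sterol-regulated proteins, and 0.146 for Stard3, a late endosomal cholesterol carrier, both by limma. Erlin2 had -0.11 and -0.44 in DEHP mice, against -0.15, 0.23 and 0.47 in vehicle mice, DEHP minus vehicle -0.46 (SE 0.26). Stard3 had -0.07 and -0.64 in DEHP mice, against -0.31, 0.52 and 0.50 in vehicle mice, DEHP minus vehicle -0.59 (SE 0.35). In both genes DEHP mouse 1 lay above vehicle mouse 1, so the groups overlapped.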

How the data were processed

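Per the file headers, Feature Extraction 9.5.1.1 made the deposited scanner files. For both channels they hold a spot's mean intensity and the median intensity around it, not normalized between arrays, and the deposited columns also include processed intensity and a log10 ratio, red over green. The authors' deposited value table holds log2 ratios. Set against the scanner's log ratios it correlated at 0.915 to 0.993 with slopes of 0.842 to 0.932. Its direction is DEHP over vehicle, with column medians of -0.0569 to 0.004. Its exact normalization and filter are not given in the sources used here. The submitters' processing notes name limma.

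The intensities were background-corrected by normexp (offset 50) and loess-normalized within arrays by limma 3.58.1 in R 4.3.3. Controls had weight 0 in the loess and were then dropped, as were spots marked as outliers (0.332% to 0.604% of an array). Least squares on the 12 log ratios gave 5 mouse values and a dye effect per probe. Probes well above background on 50% of the arrays of at least 2 mice were kept (21197 of 41174), and the brightest stood for its gene. The group test (lmFit, eBayes) used the 5 mouse values and the extract tests the 12 arrays, with a Benjamini-Hochberg threshold of 0.05 over all genes. Genes were named by accession (10551), current symbol (1894), older symbol (971) or file name (2415). Some genes of these pathways are not reported here.

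Members and lists were chosen with earlier results of these data known. By rule, mouse values are given for members without overlap, the 6 of lowest p and 13 set genes, and all probes where they differ in sign or by over 0.5. The fits were tested on simulated arrays. Mice that share a number are different animals. The number of arrays limits the precision of a mouse value and the 5 mice that of the group comparison. The alternatives covered background, normalization, filter, probes per gene, dye by slide, the authors' table, left-out mice, single slides and arrays as replicates.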

Additional observations from a re-analysis of the deposited data

How the results depend on the processing

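Between the groups, 0 members and 0 genes passed limma under each tested alternative that kept the mouse as the replicate, the authors' value table (26 members) and each left-out mouse included, while genes at an unadjusted p under 0.05 ranged from 14 to 1053. Treating the 12 arrays as independent called 2122 genes and 3 members, since it counts repeated arrays of 5 mice as animals. The median of the members, -0.15, was -0.05 with the mean of all probes of a gene and -0.19 with a dye effect per slide, and ran from -0.42 to 0.28 with 1 mouse left out. The mouse number as a replicate block called 0 genes and gave a median of 0.02, with the same differences as leaving out vehicle mouse 2, which has no DEHP partner here. Mice of the same number had deviations from their group mean that correlated at -0.732 (number 1) and -0.557 (number 4) across genes. With 2 DEHP mice, their deviations mirror each other, so these are not separate checks of a pairing. Mice of the same number are different animals and were not taken as pairs. Of the 34 members, 23 changed the sign of their difference when some mouse was left out. With a mouse left out, DEHP mouse 4 minus DEHP mouse 1 called 29 to 30 members and 11266 to 12071 genes. The vehicle pairs then called 26 to 31 members (mouse 1 minus 2), 26 to 28 (1 minus 4) and 14 to 20 (2 minus 4). With all mice in, those pairs called 71%, 68.8% and 57.4% of all genes in that order, and the shares with a mouse left out were not counted. Signal over background limits Mvd, Fdps, Insig1, Npc1, Stard5, Nr1h2 and Nr1h3, whose probes were dim on some arrays. Among single genes, the scanner software's processed signals moved Insig1, Npc1, Stard5 and Nr1h2 by more than the spread between mice, to 1.07, -0.62, -0.60 and -0.27.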
